A study of Caenorhabditis elegans with 8 samples.

Results

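Chromosome X of *C. elegans* was divided into 10 kb windows, which gave 1772 windows (the last of 8942 bp) out of 10030 windows on the 6 nuclear chromosomes. All of them were kept as members, with no choice made on their values. XR-seq reads the short oligomers released when nucleotide excision repair removes a lesion. Here the lesion was the cyclobutane pyrimidine dimer (CPD), and each read gives the strand on which a repair event took place. The 8 libraries fell into 4 groups of 2 replicates: N2 ancestral wild-type L1 larvae (WT) collected 1 h after UVB, *csb-1* L1 larvae of strain RB1801 collected 1 h after UVB, mixed-stage *xpc-1* worms of strain TG2226 collected 1 h after UVB, and WT L1 larvae without UV. Transcription-coupled repair (TCR) is missing in the *csb-1* strain, and global repair in the *xpc-1* strain. The *xpc-1* worms were of mixed stage whereas the others were L1 larvae, so strain and stage cannot be told apart in any comparison with *xpc-1*. The labels do not say whether replicates came from separate cultures, so the tests measure only the spread between these libraries, which may be technical.

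Excision repair starts in either of 2 ways. In global repair the XPC protein finds lesions on both strands wherever chromatin allows, and in TCR an RNA polymerase II stalled at a lesion on the transcribed strand (TS) calls in CSB, leaving the non-transcribed strand (NTS) to global repair. Chromosome X differs from the autosomes in both respects. Hermaphrodites carry a pair of X chromosomes, and in the soma a condensin-based dosage compensation complex bound along them lowers their transcription. X is poor in genes that act in the germline and is largely silent there. L1 larvae have almost no germline, whereas a mixed-stage population can include adults with large gonads. The labels do not give the share of adults among the *xpc-1* worms. The arms of *C. elegans* autosomes are rich in repeats and repressive chromatin and their centres are rich in active genes, whereas genes on X are spread more evenly.

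The sites at which a CPD can form were counted as adjacent thymines (TT) on each strand, and the sequences below show the kind of stretch on which the windows' reads fell. Each is the 100 bp stretch with the most reads on 1 strand in a window described later, chosen after the values were seen and leaving out any stretch within an annotated UTR. They are read from WBcel235 in the direction of the strand that was repaired, with TT runs in capitals.
*mdl-1* window, chrX:6740201-6740300, plus strand: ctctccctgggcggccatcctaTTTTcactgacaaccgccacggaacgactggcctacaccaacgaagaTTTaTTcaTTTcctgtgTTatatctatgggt
*lin-14* intron, chrX:11472101-11472200, plus strand: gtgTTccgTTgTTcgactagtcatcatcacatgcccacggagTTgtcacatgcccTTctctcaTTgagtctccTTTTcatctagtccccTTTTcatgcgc
*rab-14*, chrX:15606101-15606200, plus strand: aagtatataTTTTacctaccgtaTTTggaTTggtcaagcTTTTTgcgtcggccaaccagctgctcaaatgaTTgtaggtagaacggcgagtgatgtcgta
*nhr-1*, chrX:17520901-17521000, minus strand: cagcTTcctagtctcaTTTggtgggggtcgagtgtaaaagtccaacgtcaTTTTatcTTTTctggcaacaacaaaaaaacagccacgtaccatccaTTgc
*lpr-3* flank, chrX:11057301-11057400, minus strand: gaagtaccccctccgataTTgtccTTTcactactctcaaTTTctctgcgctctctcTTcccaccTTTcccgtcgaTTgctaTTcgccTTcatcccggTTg
The first lies outside any annotated gene, 2051 bp from *mdl-1*, and holds 9 TTs, on which 21 and 34 reads fell in WT, against 21 and 24 in *csb-1*, and 3 and 0 in mixed-stage *xpc-1*. The second lies in an intron of *lin-14* on its NTS and took 37 and 18 reads in WT, against 37 and 56 in *csb-1*, and 3 and 0 in *xpc-1*. The third is the TS of *rab-14*, with 81 of its 100 bases coding, and took 37 and 15 reads in WT, against 18 and 22 in *csb-1*, and 60 and 5 in *xpc-1*. The fourth is the TS of *nhr-1*, where 10 bases are coding, and took 31 and 17 reads in WT, against 18 and 26 in *csb-1*, and 30 and 8 in *xpc-1*. The last lies 1 bp from *lpr-3*, with 29 bases in the non-coding gene C09F12.6, and took 55 and 18 reads in WT, against 32 and 47 in *csb-1*, and 0 in each *xpc-1* library. None of the 5 stretches had a read in the libraries without UV. The *lin-14* and *mdl-1* stretches drew most of their reads in the strains with global repair, and the *rab-14* and *nhr-1* stretches were read in every irradiated library. However, the *mdl-1* stretch was picked by its reads in WT and the *lin-14* and *lpr-3* flank stretches by theirs in *csb-1*. The *rab-14* and *nhr-1* stretches were picked by their reads in *xpc-1*. These differences between stretches thus follow in part from the choice.

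Each distinct read with a mapping quality over 20 was counted once. On X this left 1804239 and 707736 reads for WT replicates 1 and 2, 1484188 and 2837068 for *csb-1*, 481596 and 20449 in *xpc-1*, and 1880 and 2388 in WT no UV. The median X window therefore held 972 and 380 reads in WT, against 818 and 1586 in *csb-1*, 205 and 9 in *xpc-1*, and 1 in each library without UV. *xpc-1* replicate 2 was the shallowest irradiated library, with 0 reads in 25 of the X windows, and its single-window values carry a large counting error (a count of 0 allows up to 3 reads). X windows held between 324 and 1834 TTs on the plus strand (median 1325) and between 647 and 2156 on the minus strand (median 1326). In 120 X windows (6.77%) over 20% of reads had a lower mapping quality and were lost, against 1041 autosomal windows (12.6%). The levels of these mapping-limited windows rest on fewer of their reads, so values are also given without them.

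The mutated gene *csb-1* lies on X itself, at chrX:15861294-15865918 on the minus strand. It encodes the protein that couples a stalled polymerase to repair. The gene took 322 and 148 reads in WT, against 181 and 364 in *csb-1* worms and 375 and 10 in *xpc-1*. Within it, the 1544 bp of chrX:15862534-15864077 took 81 and 41 reads in WT, 83 and 3 in *xpc-1*, and 0 and 1 in the *csb-1* libraries. No fixed 1 kb bin of X with at least 30 WT reads, those over the gene included, was empty in both *csb-1* libraries. The interval was delimited by the stretch with few reads in the *csb-1* libraries themselves, so its counts are a description and no test of the label.

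X windows were repaired more than the average autosomal window in L1 larvae and less in mixed-stage *xpc-1* worms. Per TT, X received 1.342 and 1.323 times the autosomal reads in WT replicates 1 and 2, 1.372 and 1.302 times in the *csb-1* replicates, and 0.535 and 0.789 times in *xpc-1*. Both *xpc-1* libraries thus lay below 1 and all 4 irradiated L1 libraries above it, with group values of 1.333 ± 0.0138 in WT, 1.337 ± 0.0499 in *csb-1* and 0.662 ± 0.180 in *xpc-1* (SD, n = 2). The few reads of unirradiated larvae, counted in the same way, gave 1.067 and 1.079. WT and *csb-1* overlapped (exact two-sided permutation test, p = 1). The gap between *xpc-1* and *csb-1* exceeded the spread of the replicates, but the exact permutation test gave p = 0.33, the smallest that 2 against 2 libraries allow. In terms of all kept reads, X took 22.01% and 21.76% for WT, 22.39% and 21.49% for *csb-1*, 10.11% and 14.23% for *xpc-1* and 18.32% and 18.49% without UV, beside 17.37% of the genome's TTs. The exact 95% interval is 17.58% to 19.09% in the shallowest library and under 0.4 percentage points wide in each irradiated one, which covers counting error only. The *xpc-1* replicates stood further apart than that, and with all copies of each read counted they gave 0.424 and 0.777.

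**Figure D1:**
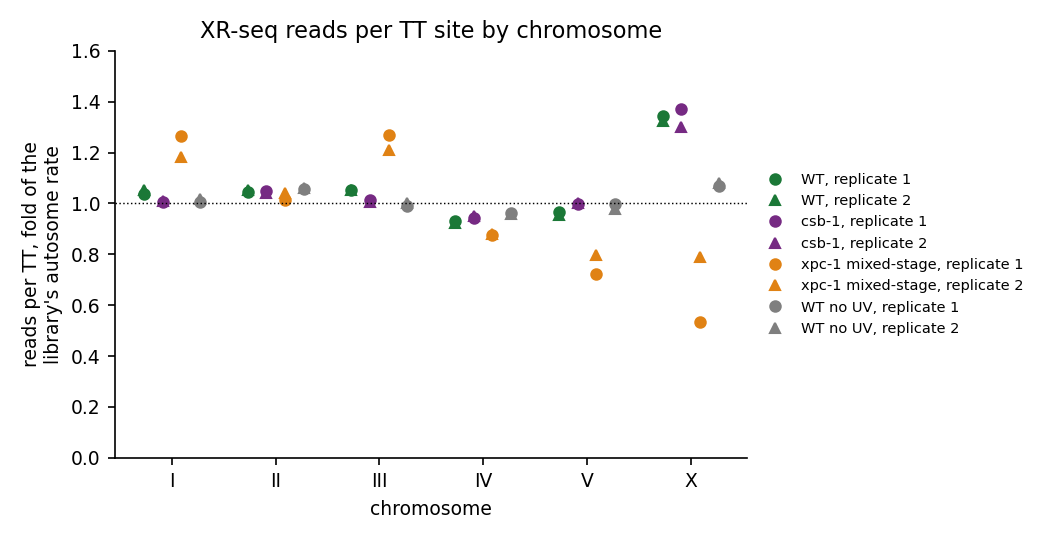
Reads per TT of each chromosome (x axis) divided by the autosomal rate of the same library (y axis, linear, dotted line at 1), with 1 point for each library, circles for replicate 1 and triangles for replicate 2. X lies above 1 in WT and *csb-1* (means 1.333 and 1.337) and below 1 in mixed-stage *xpc-1* (0.662), with WT no UV at 1.073.

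Among the 6 chromosomes, X had the highest rate in every irradiated L1 library. Without UV it was also the highest, by a small margin, at 1.067 and 1.079 beside 1.057 and 1.060 on II. In WT the autosomes ranged from 0.927 on IV to 1.054 on III as group means, and in *csb-1* from 0.948 on IV to 1.044 on II. In *xpc-1* the order turned, with III at 1.240, I at 1.223, II at 1.026, IV at 0.879, V at 0.760 and X lowest at 0.662. The gap between V and X was wide in *xpc-1* replicate 1 (0.721 and 0.535) and small in replicate 2 (0.799 and 0.789). Both strands of X shared the pattern, since in WT replicate 1 the plus strand stood at 1.342 and the minus strand at 1.343, and in the *xpc-1* replicates the plus strand stood at 0.542 and 0.783 and the minus strand at 0.529 and 0.795.

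The height of X in L1 larvae depended on which part of an autosome it was set beside. Each chromosome was cut into 3 equal lengths, a left arm, a centre and a right arm. In WT the left arm, centre and right arm of X stood at 1.246 ± 0.00901, 1.450 ± 0.0272 and 1.303 ± 0.00527 of the autosomal mean, and those of the autosomes at 0.848 ± 0.00562, 1.344 ± 0.0120 and 0.828 ± 0.00565 (SD, n = 2). *csb-1* gave nearly the same, with 1.246, 1.465 and 1.302 on X and 0.854, 1.322 and 0.843 on the autosomes. X as a whole thus stood near autosome centres in L1 larvae, at 0.992 ± 0.0014 of them in WT and 1.011 ± 0.029 in *csb-1*, and exceeded autosome arms. In *xpc-1* the 3 lengths of X were nearly level, at 0.639 ± 0.173, 0.698 ± 0.189 and 0.650 ± 0.177, whereas the autosomes rose from 0.786 and 0.802 on the arms to 1.437 at the centre. X thus stood at 0.459 ± 0.112 of autosome centres there. Unirradiated larvae gave 0.844, and their own reads followed the same shape, with 1.271 at autosome centres and 1.168 at the centre of X.

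**Figure D2:**
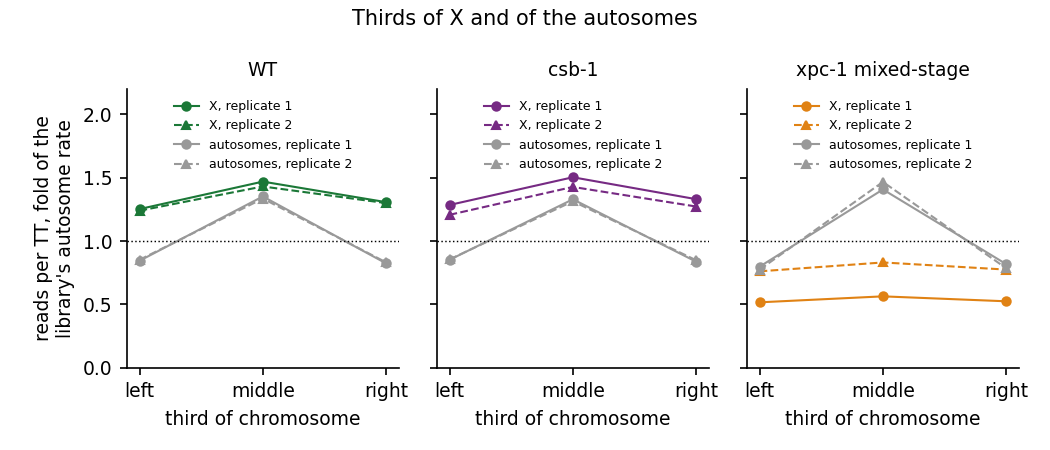
Reads per TT relative to the autosomal rate of the library (y axis, linear) in the left, middle and right part of X (coloured) and of the autosomes (grey), in a panel for each irradiated group with 1 line for each replicate. In WT the X means lie between 1.246 and 1.450, beside 0.828 to 1.344 on the autosomes, and in *xpc-1* the X means lie between 0.639 and 0.698.

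Along X, the level was lowest near the left end. In blocks of 1 Mb, the lowest WT block was the first, at 0.866 and 0.848 of the autosomal mean in the replicates, followed by the second, at 0.898 and 0.893. The first 2 Mb together stood at 0.882 and 0.870 for WT, 0.916 and 0.898 for *csb-1*, 0.415 and 0.553 for *xpc-1* and 0.807 and 0.818 without UV. From 2 to 14 Mb the level was 1.447 and 1.417 for WT, 1.481 and 1.395 for *csb-1*, 0.555 and 0.830 for *xpc-1* and 1.124 and 1.150 without UV. From 14 Mb to the right end it was 1.262 and 1.271 for WT, 1.277 and 1.225 for *csb-1*, 0.537 and 0.788 for *xpc-1* and 1.027 and 0.996 without UV. Every library, with UV or without, was lower in the first 2 Mb than over the next 12. The first 2 Mb also hold 52 of the 120 mapping-limited windows, and without those the left end stayed the lowest of the 3 stretches, at 1.013 and 0.996 for WT, 1.051 and 1.024 for *csb-1* and 0.444 and 0.629 for *xpc-1*, beside 1.358 and 1.331, 1.397 and 1.321, and 0.520 and 0.773 over the middle stretch. The highest WT block was 4 to 5 Mb, at 1.527 and 1.509, which was also the highest in *xpc-1*, at 0.688 and 1.029. In *csb-1* the highest block was 6 to 7 Mb, with a mean of 1.506, but without mapping-limited windows it was 4 to 5 Mb (1.433, beside 1.410 at 6 to 7 Mb). In *xpc-1* the lowest block was 1 to 2 Mb, at 0.390 and 0.568.

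**Figure D3:**
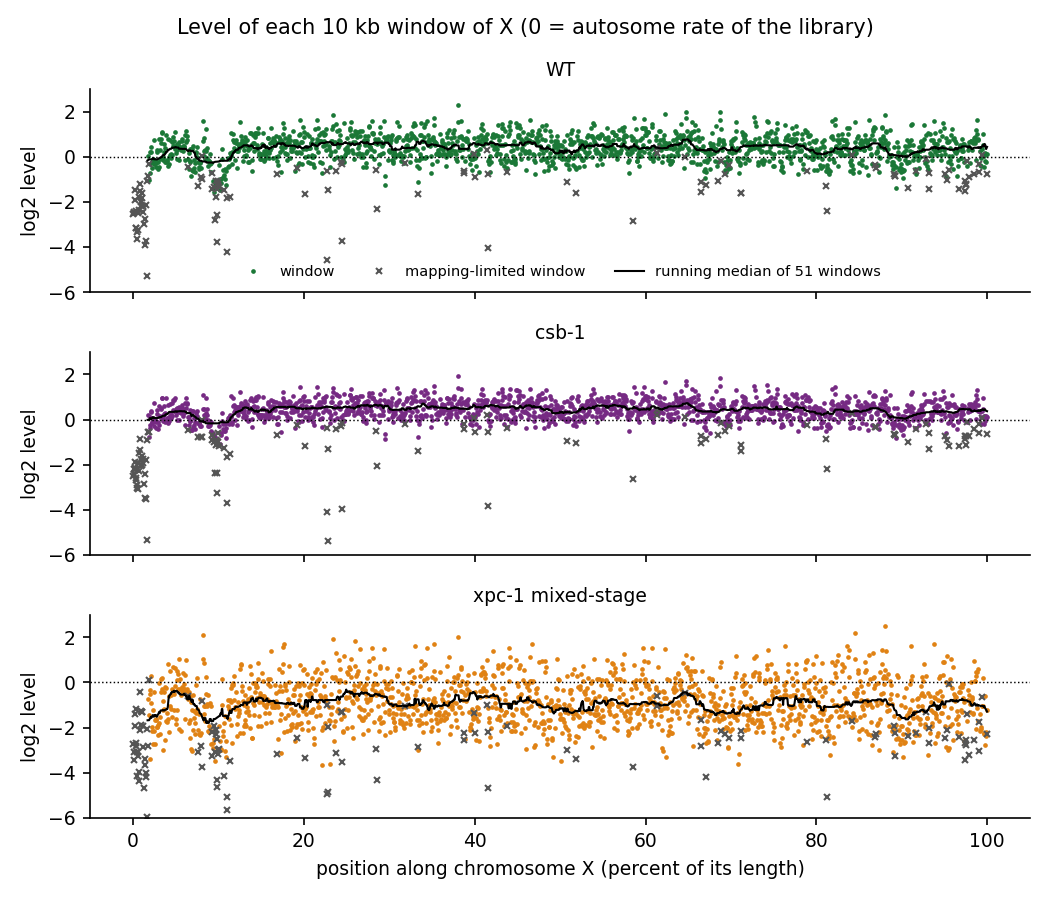
Level of each X window (y axis, log2 of reads per TT relative to the autosomal rate, mean of the replicates) by position along X in percent of its length (x axis), with crosses for mapping-limited windows and a line for the running median of 51 other windows; 2 WT windows and 1 window each in *csb-1* and *xpc-1* lie below the axis. The WT and *csb-1* lines dip below 0 near the left end and lie above 0 over most of the rest, and the *xpc-1* line stays below 0.

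Single windows spread less on X than on the autosomes. The SD of the log2 level over windows was 0.824 and 0.811 on X for WT, 0.738 and 0.647 for *csb-1* and 1.125 and 1.239 in *xpc-1*, beside 1.148 and 1.090, 1.049 and 0.994, and 1.689 and 1.539 on the autosomes. Without mapping-limited windows X fell to 0.562 and 0.547 for WT, 0.464 and 0.379 for *csb-1* and 0.998 and 1.135 for *xpc-1*, and the autosomes still spread more, at 0.776 and 0.752, 0.657 and 0.560, and 1.470 and 1.418. These are descriptions over windows, which share a library. The X windows above the autosomal mean numbered 1249 and 1242 for WT, 1377 and 1415 for *csb-1*, and 221 and 455 for *xpc-1*. That is 70.5% and 70.1% of X windows for WT, 77.7% and 79.9% for *csb-1* and 12.5% and 25.7% for *xpc-1*, beside 43.9% and 44.0%, 46.6% and 48.4%, and 34.9% and 33.7% of autosomal windows. Replicates ordered the X windows alike in L1 larvae, with Spearman's rho of 0.980 in WT and 0.985 in *csb-1* over 1772 windows, and less so in *xpc-1*, at 0.856.

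Gene cover went with the level more in *xpc-1* than in the L1 strains. The 1652 X windows that were not mapping-limited were sorted into 5 equal bins by gene cover. This is the share of their bases in protein-coding genes of 1 strand only, so bases with genes on both strands count as not covered. The median log2 level in *xpc-1* was -1.40, -1.12, -0.85, -0.70 and -0.63 from the least to the most covered bin, whereas WT gave 0.28, 0.37, 0.41, 0.49 and 0.42. Over the same windows Spearman's rho of the level with gene cover was 0.263 in *xpc-1*, 0.0999 in WT and 0.0801 in *csb-1*. With GC content it was 0.335, 0.235 and 0.20, and with TT density, which is also the divisor of the level, -0.292, -0.216 and -0.224. All of these are weak and neighbouring windows share base composition.

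Within genes, the excess of X in WT was smaller on the TS than on the NTS. Reads were split by strand over stretches annotated to protein-coding genes of 1 strand only, which cover 54.5% of X and 62.9% of the autosomes. Per TT, the TS of X genes took 1.296 and 1.263 times the reads of the TS of autosomal genes in WT, 1.389 and 1.320 times in *csb-1*, and 0.528 and 0.807 times in *xpc-1*. On the NTS the ratios were 1.430 and 1.414 for WT, 1.396 and 1.319 for *csb-1*, and 0.660 and 1.049 for *xpc-1*. WT thus lay below both *csb-1* libraries on the TS and above both on the NTS, with p = 0.33 for each in the exact permutation test, the smallest it can give. In *xpc-1* the TS lay below both *csb-1* libraries, and so did the NTS, again at p = 0.33 in the exact permutation test.

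The preference for the TS was weaker on X. In WT the ratio of TS to NTS reads per TT was 1.137 and 1.184 on X, beside 1.254 and 1.326 on the autosomes. In *xpc-1* it was 5.10 and 4.64 on X, beside 6.38 and 6.04. In *csb-1*, without TCR, it was 0.964 and 0.975 on X, beside 0.969 and 0.974. X over autosomes came to 0.900 ± 0.0094 in WT, 0.785 ± 0.0216 in *xpc-1* and 0.998 ± 0.0042 in *csb-1* (SD, n = 2). Each WT library (0.906 and 0.893) and each *xpc-1* library (0.800 and 0.769) thus lay below both *csb-1* libraries (0.995 and 1.001). X had the lowest ratio of the 6 chromosomes in all 4 of those WT and *xpc-1* libraries, with V next, at 1.214 and 1.275 in WT and 6.08 and 5.41 in *xpc-1*. Without UV, 1.125 and 0.999 on X lay on both sides of 1. They rest on 556 TS and 509 NTS reads in replicate 1 and on 686 and 707 in replicate 2.

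**Figure D4:**
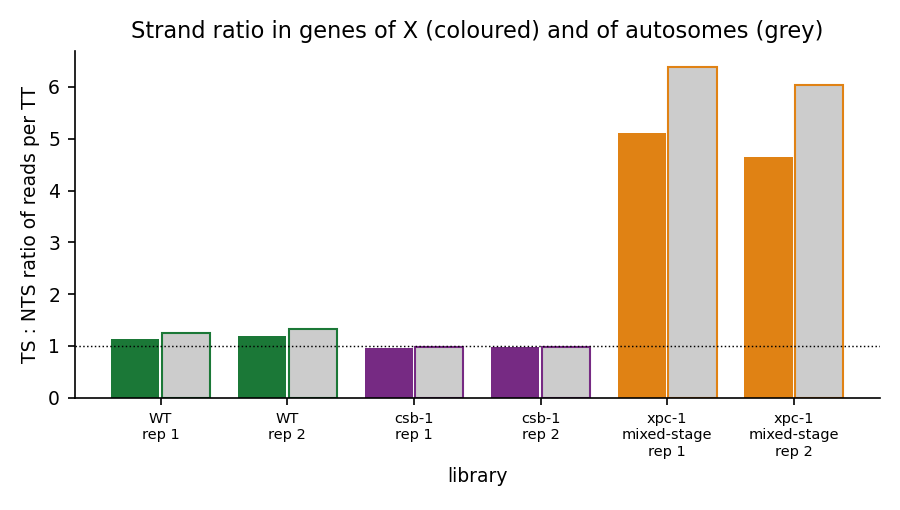
Ratio of TS to NTS reads per TT (y axis, linear from 0, dotted line at 1) over protein-coding genes of X (coloured bars) and of the autosomes (grey bars) in each irradiated library (x axis). The X bar is lower than the autosome bar in each WT and *xpc-1* library, as in *xpc-1* replicate 1 (5.10 and 6.38), whereas both lie near 0.97 in *csb-1*.

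Next, the levels of single windows in WT were compared with those in *csb-1*, which lacks TCR. A level is relative to the autosomal rate of its library, so a lower level in WT need not mean less repair there. Of 1769 X windows tested with limma, 59 were higher and 273 lower in WT at an adjusted p under 0.05 (Benjamini-Hochberg over all nuclear windows), in all 18.8%. Over the genome 31.4% of windows were called, 9.64% higher and 21.8% lower, so the share on X lay below that of the genome in both directions. The median difference was -0.05 on the log2 scale on X and -0.07 on the autosomes. With 1 library left out, the spread comes from the pair of the other group alone and the lone library is assumed to vary alike. The count was then 264 without WT replicate 1, 159 without WT replicate 2 and 66 without *csb-1* replicate 2, and without *csb-1* replicate 1 it was 337, with 178 higher and 159 lower.

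Several X windows with higher levels in WT hold genes read mainly on the TS. The leading gene of a window is the protein-coding gene with the most TS reads summed over WT and *xpc-1*. Where a window holds no protein-coding gene, any gene was taken. The TS reads of a leading gene in those groups were thus part of its choice. The window chrX:15600001-15610000, with *nipi-3*, which encodes a Tribbles-like kinase of innate immunity and development, *rab-14*, a membrane traffic GTPase, and *ent-2*, a nucleoside transporter, stood at 3.76 and 3.49 times the autosomal mean in WT and at 2.62 and 2.23 in *csb-1*. The log2 difference was 0.59 ± 0.19 (SE, limma adjusted p = 0.00947), and the call was lost without either WT replicate. Windows named for a contrast had to differ in 1 direction in all 4 library pairs. That the libraries of the 2 groups do not overlap in such a window is therefore fixed by the choice. The same window had the highest mean level of X in *xpc-1*, at 3.69 and 8.64, which rests on the 108 reads of replicate 2, since in replicate 1 the F20D1.3 window was higher, at 4.13. *nipi-3* itself took 629 and 212 TS reads in WT beside 134 and 37 on the NTS, 289 and 504 beside 94 and 224 in *csb-1*, and 605 and 47 beside 57 and 5 in *xpc-1*. Per TT, that is 6.67 and 5.64 times the autosomal mean on its TS in WT and 3.81 and 3.29 times in *csb-1*. The TS share of its reads was 75.5% and 69.2% in *csb-1*, where its TS holds 331 TTs and its NTS 202.

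The window chrX:14970001-14980000, led by the uncharacterised F20D1.3 and also holding *tbc-1*, *flwr-1* and *emre-1*, stood at 2.83 and 3.04 for WT, 2.13 and 1.99 for *csb-1*, and 4.13 and 4.94 for *xpc-1*. Compared with *csb-1*, WT was higher by 0.51 ± 0.13 (SE, limma adjusted p = 0.0015) and *xpc-1* by 1.14 ± 0.17 (limma adjusted p = 0.00968). The TS share of F20D1.3 was 66.9% and 75% for WT, 46.8% and 49.9% for *csb-1* and 94.2% and 95.2% for *xpc-1*, with no overlap between the groups. Also higher in WT were the window of W05H7.1 and *cebp-1*, a bZIP transcription factor of axon regeneration (0.48, limma adjusted p = 0.00498), and that of *ain-1*, which encodes a GW182 protein of the microRNA silencing complex (0.43, adjusted p = 0.0153). *ain-1* overlaps C06G1.12 on the other strand. The window of the non-coding gene C30E1.9 passed as well (0.59, limma adjusted p = 0.000248), but 61.9% of its reads were of low mapping quality.

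Of the 5 windows with the largest decrease in WT, 3 lay within chrX:1650001-1730000, led by *fbxa-170*, *tbx-32* and F07G6.2, genes of the F-box and T-box families among them. The F07G6.2 window and that of Y40C7B.8, another of the 5, were mapping-limited, with 26.6% and 38.2% of reads of low mapping quality. In the *fbxa-170* window WT took 254 and 92 reads and *csb-1* 289 and 701 reads, a log2 difference of -0.70 ± 0.16 (SE, limma adjusted p = 0.000207). Outside that region, the window chrX:11860001-11870000 held the end of *mes-1*, a receptor tyrosine kinase-like gene of the embryonic germline, and *dot-1.2*, a histone methyltransferase homolog. It stood at 0.556 and 0.496 for WT, 0.772 and 0.827 for *csb-1*, and 0.329 and 0.151 for *xpc-1*. The log2 difference between WT and *csb-1* was -0.60 ± 0.12 (SE, limma adjusted p = 2.15e-05). The libraries of these 2 groups could not overlap here, since the choice of windows required it.

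The strand ratio of a window, log2 of plus over minus reads after taking off the TT ratio, was called in fewer X windows. In WT against *csb-1*, 39 X windows moved to the plus strand and 39 to the minus strand of 1769 (4.41%), whereas 11.4% were called over the genome, 5.71% towards plus and 5.72% towards minus. Of the 78, 74 had most of their genic bases on 1 strand, and 71 of these (95.9%) moved towards the template strand of those genes, beside 1183 of all 1683 such X windows tested (70.3%). The autosomes gave similar shares, at 95.1% of called and 72.8% of all such windows tested. Without a filter on low reads no X window was called by limma, although 293 had an unadjusted p under 0.05, and without *csb-1* replicate 1 or 2, 5 and 15 were called. The count was 160 with the replicate number as a block, 264 with weights from read counts, and 342 and 60 without WT replicate 1 or 2.

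Among called windows with a mean of at least 100 reads, that of C30E1.9 had the largest shift (-0.97, limma adjusted p = 0.0229), where 61.9% of reads were of low mapping quality. In the window of R04E5.8, an uncharacterised gene on the minus strand, plus-strand reads numbered 706 and 306 in WT and minus-strand reads 479 and 175, whereas *csb-1* had 378 and 721 beside 474 and 826. The log2 strand ratio was higher in WT by 0.94 ± 0.13 (SE, limma adjusted p = 0.0219). *pqn-65*, on the minus strand, fills most of chrX:4610001-4620000 and gave 746 and 304 plus beside 518 and 212 minus reads in WT, 361 and 734 beside 441 and 785 in *csb-1*, and 1095 and 46 beside 81 and 1 in *xpc-1*. Its strand ratio was higher by 0.72 ± 0.12 in WT (limma adjusted p = 0.0221) and by 4.54 ± 0.51 in *xpc-1* (limma adjusted p = 0.0136), each against *csb-1*, whose libraries both comparisons share. *nhr-1*, a nuclear hormone receptor on the plus strand, and *sup-10*, which regulates a muscle potassium channel, share the window chrX:17520001-17530000. It gave 722 and 355 minus beside 482 and 231 plus reads in WT, 398 and 777 beside 437 and 851 in *csb-1*, and 571 and 30 beside 32 and 0 in *xpc-1*. The shift was -0.73 ± 0.13 in WT (limma adjusted p = 0.0226) and -5.17 ± 0.71 in *xpc-1* (adjusted p = 0.0152). *nhr-1* overlaps the non-coding R09G11.3 on the other strand, and the reads of the 2 cannot be assigned to 1 gene by position.

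Other windows with large WT shifts held *acl-4* (0.83), an acyltransferase gene overlapped by others on the opposite strand, *sym-4* (0.73), *madd-3* (0.68), *nfki-1* (-0.86), an IκB homolog, K06A9.1 (-0.83) and *dpy-23* (-0.74), the μ subunit of the AP2 clathrin adaptor. Each had a limma adjusted p under 0.05. In every one of these 6 windows the strand that gained in WT was the TS of the named gene. Each gene was named for its TS reads in WT and *xpc-1*, so this match is partly fixed by the choice and is no test.

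Mixed-stage *xpc-1* worms, with TCR only, were then set against *csb-1* larvae, with global repair only. Of 1768 X windows tested with limma, 1146 were lower and 5 higher in *xpc-1* at an adjusted p under 0.05, in all 65.1%, whereas 52.3% were called over the genome, 39.8% lower and 12.6% higher. The share called lower was thus larger on X than over the genome, and the share called higher smaller. The median log2 difference was -1.38 on X and -0.56 on the autosomes. Without *csb-1* replicate 1 or 2, when the *xpc-1* pair alone gave the spread, 25 and 22 X windows were called and the median difference was -1.35 and -1.39. Without *xpc-1* replicate 1 or 2, when the *csb-1* pair alone gave it, 1567 and 1700 were called and the median difference was -1.0 and -1.67.

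The 5 windows that were higher in *xpc-1* were those of F20D1.3 and *pqn-65* described above, the C30E1.9 window, *sec-16A.2* with *ksr-1* (0.95, limma adjusted p = 0.0345), and *rbg-1* (0.78, adjusted p = 0.0423). *sec-16A.2* encodes a scaffold of endoplasmic reticulum exit sites and *ksr-1* a scaffold of Ras signalling. The *rbg-1* window adjoins that of F20D1.3. The *pqn-65* window stood at 2.18 and 2.23 for WT, 1.72 and 1.61 for *csb-1* and 3.02 and 4.20 for *xpc-1*, a log2 difference of 1.11 ± 0.22 from *csb-1* (SE, limma adjusted p = 0.0151). Its libraries did not overlap between the 3 groups, which the choice of windows required for *xpc-1* and *csb-1*.

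Among called windows with a mean of at least 100 reads, the 5 with the largest fitted drop in *xpc-1* all had 0 reads in *xpc-1* replicate 2. The window chrX:11050001-11060000, with the lipocalin-related genes *lpr-3* and *lpr-6*, which act in the apical extracellular matrix of epithelia, took 892 and 344 reads in WT, against 737 and 1546 in *csb-1*, and 120 and 0 in *xpc-1*. Relative to the autosomes it stood at 1.31 and 1.27 for WT, 1.35 and 1.40 for *csb-1*, and 0.264 and 0 for *xpc-1*, with a fitted log2 difference of -3.77 ± 0.93 (SE, limma adjusted p = 0.0256). The window of *npr-4*, a neuropeptide receptor, took 708 and 315 reads in WT, against 668 and 1297 in *csb-1* and 123 and 0 in *xpc-1*. Those of *ubc-21*, a ubiquitin-conjugating enzyme, and *clh-4*, a chloride channel, also had 0 reads in *xpc-1* replicate 2. A fitted difference against a library at 0 depends on the pseudocount, so these windows are best read from their counts in *xpc-1* replicate 1. The read filter averages the 4 libraries of the contrast. A window high in *csb-1* can thus pass it with few *xpc-1* reads, as the *lpr-3* and *npr-4* windows did.

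**Figure D5:**
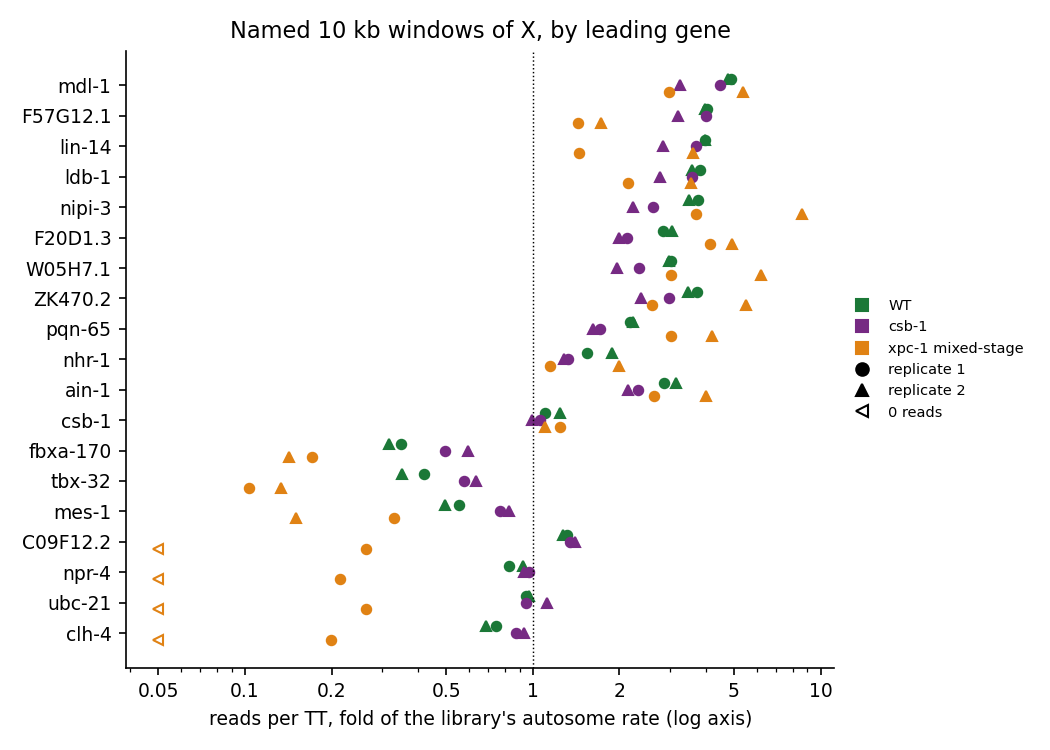
Level of 19 named X windows (y axis, by leading gene) as reads per TT relative to the autosomal rate of the library (x axis, log scale), with 1 point for each of the 6 irradiated libraries and open triangles for libraries with 0 reads. The *nipi-3* window spans 2.23 to 8.64, and the *lpr-3* window, drawn under its leading gene C09F12.2, lies near 1.3 in L1 larvae and at 0.264 in *xpc-1* replicate 1.

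On the strand ratio, 391 X windows moved to the plus and 353 to the minus strand in *xpc-1* of 1768 (42.1%), close to the 40.3% over the genome (20.3% plus, 20.1% minus). Of 717 called windows with most genic bases on 1 strand, 654 (91.2%) moved towards the template strand, beside 1317 of all 1682 tested (78.3%). On the autosomes these shares were similar, at 91.8% and 78.5%. Without *csb-1* replicate 1 or 2, when only the *xpc-1* pair gave the spread, no X window was called by limma, with 331 and 356 at an unadjusted p under 0.05. Without *xpc-1* replicate 1 or 2, when only the *csb-1* pair gave it, 1569 and 1586 were called. In the *xpc-1* libraries the ratio itself was at least 1 log2 unit from 0 in 1063 and 1027 of 1652 X windows (64.3% and 62.2%, beside 61.4% and 63.0% of autosomal windows, with a median of only 9 reads per X window in replicate 2), whereas in WT this held for 1 and 7 windows and in *csb-1* for none. Besides *nhr-1* and *pqn-65*, the windows with the largest shifts were those of K11G12.6 (4.56), F39C12.1 with the adducin gene *add-1* (4.32), *sec-16A.2* (-4.30), *gap-2*, a Ras GTPase-activating protein gene (-4.27), *sor-3*, a Polycomb-related repressor of homeotic genes (-4.22), a pseudogene window near the left end (4.17), *scd-1* (4.09), and *nhr-48* (-4.01). Each had a limma adjusted p under 0.05.

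The windows with the highest levels were nearly the same in WT and *csb-1*, which share both the L1 stage and global repair. The window chrX:6740001-6750000, with *mdl-1*, a Mad-like partner of MXL-1, and the anion transporter gene *abts-4*, led both, at 4.89 and 4.78 for WT, 4.46 and 3.24 for *csb-1*, and 2.98 and 5.39 for *xpc-1*. Next in WT came F57G12.1, at 4.02 and 3.97, the *lin-14* window chrX:11470001-11480000, at 3.96 and 3.96, *ldb-1*, a LIM-domain binding protein gene, at 3.81 and 3.59, and the *nipi-3* window. *lin-14* encodes the transcription factor that specifies L1 cell fates. Its window stood at 3.69 and 2.83 in *csb-1* and at 1.45 and 3.61 in *xpc-1*. Those groups overlapped with each other, and both WT libraries lay above them. The window was named as 1 of the 5 highest in WT, so this order follows in part from the choice. Over the gene, the TS share was 50.1% and 51.9% for WT, 46.3% and 44.9% for *csb-1*, and 86.6% and 82.1% for *xpc-1*. These are shares of reads, and the TS of *lin-14* holds 2149 TTs beside 2740 on its NTS. *lin-14* also overlaps T25C12.7 on the other strand. The NTS of *lin-14* stood at 3.17 and 3.07 times the autosomal mean in WT and at 3.13 and 2.57 times in *csb-1*, so in L1 larvae both strands of this locus were far above the X level.

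At the other end, the lowest windows of each group were mapping-limited, and the lowest in all 3, chrX:230001-240000, took 1, 0, 1, 5, 0 and 0 reads in the 6 irradiated libraries with 99.7% of reads of low mapping quality. Among windows not mapping-limited, the lowest in WT were those of *fbxa-170*, C14E2.4, Y7A5A.20, *tbx-32* and ZC53.2, of which all but Y7A5A.20 lie within chrX:1650001-1930000.

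Gene lists on X were described by the TS level of their members, as reads per TS TT relative to all autosomal sequence, with no test of a list. Over the 2703 of 2731 protein-coding genes of X with at least 10 TTs on the TS, the median TS level was 1.25 in WT, 1.24 in *csb-1* and 0.67 in *xpc-1*, and the median TS share 52.4%, 48.9% and 77.8%. Of the windows that hold these genes, 295 of 1513 were called for the level of WT against *csb-1* and 974 of 1512 for that of *xpc-1* against *csb-1*, beside 31.4% and 52.3% over the genome.

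Genes of ribosomal proteins, which every cell makes, number 2 on X. Their median TS level was the highest of the lists in WT (4.53) and *xpc-1* (11.0), whereas in *csb-1*, at 1.35, it lay below that of the 3 heterochronic genes (2.57). *rpl-11.2* took 105 and 55 TS reads in WT beside 18 and 7 on the NTS, 18 and 37 beside 16 and 45 in *csb-1*, and 181 and 10 beside 4 and 0 in *xpc-1*. Its TS level was 4.39 and 5.77 for WT, 0.934 and 0.953 for *csb-1* and 11.3 and 21.7 for *xpc-1*. *rpl-25.1* stood at 3.04 and 4.93, 1.86 and 1.65, and 5.55 and 5.35. Both genes were higher in each WT and *xpc-1* library than in either *csb-1* library, and both windows were called higher in WT by limma, beside 9.64% of windows over the genome. Of the heterochronic genes, which time larval fates, *ain-1* stood at 4.81 and 5.79 for WT, 2.70 and 2.45 for *csb-1* and 8.94 and 15.6 for *xpc-1*, and *daf-12*, a nuclear receptor for dafachronic acids, at 1.85 and 2.03, 1.90 and 1.72, and 1.26 and 1.12.

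The 5 muscle genes had median TS levels of 2.10 in WT, 1.57 in *csb-1* and 2.67 in *xpc-1*. *unc-97*, a LIM protein of muscle attachments, stood at 2.53 and 2.52 for WT, 1.86 and 1.90 for *csb-1* and 3.67 and 9.10 for *xpc-1*, whereas the pharyngeal myosin gene *myo-2* stood at 0.891 and 0.791, 0.766 and 0.782, and 0.363 and 0.467. The 10 neuronal genes had medians of 1.17, 1.27 and 0.82. Among them *unc-18*, which acts in synaptic vesicle fusion, stood out at 2.93 and 3.11 for WT, 1.39 and 1.51 for *csb-1* and 5.05 and 6.42 for *xpc-1*, while the touch receptor tubulin gene *mec-7* gave 1.13 and 0.966, 1.16 and 1.47, and 0.825 and 0.

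The 6 X signal and dosage genes, which count X chromosomes or recruit the compensation complex, had medians of 1.41, 1.16 and 1.56. *xol-1*, the switch gene that hermaphrodites keep off, was the lowest in WT, at 0.908 and 0.587, beside 1.07 and 1.06 in *csb-1* and 0.390 and 0 in *xpc-1*. *sex-1*, a nuclear receptor that represses *xol-1*, stood at 2.52 and 2.73, 2.32 and 2.17, and 0.773 and 0.746, and *sdc-2*, which brings the complex to X, at 1.31 and 1.34, 1.31 and 1.18, and 0.916 and 1.47. *ceh-39* stood higher in *xpc-1*, at 2.68 and 3.55, than in WT (1.45 and 1.55) or *csb-1* (0.869 and 1.02).

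The 27 collagen genes, which build the cuticle around molts, had median TS levels of 0.75 in WT, 0.80 in *csb-1* and 0.10 in *xpc-1*, and 16 of their 22 windows were called lower in *xpc-1*. The exception was *col-19*, an adult collagen, with the highest TS level of the list in *xpc-1* (1.61 as the group mean) beside 0.737 in WT and 0.622 in *csb-1*. The 32 neuropeptide genes had medians of 1.12, 1.12 and 0.30, with 20 of 29 windows lower. The 18 homeobox genes had medians of 0.98, 1.02 and 0.69, with 9 of 16 windows lower, and both insulin-like genes lay in windows that were lower. The 23 nuclear hormone receptor genes had medians of 1.81, 1.47 and 1.95 and ranged in *xpc-1* from 0.057 (*nhr-281*) to 14.9 (*nhr-3*). *nhr-3* stood at 5.62 and 8.81 for WT, 3.67 and 2.66 for *csb-1*, and 7.21 and 22.6 for *xpc-1*. These counts of lower windows stand beside 970 of the 1512 windows that hold any protein-coding gene of X and beside the genome's 39.8%.

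The vitellogenin genes, which the adult hermaphrodite intestine expresses for yolk, served as markers of adults. All 5 on X were low on the TS in every group, with medians of 0.22 in WT, 0.18 in *csb-1* and 0.04 in *xpc-1*. *vit-2* took 42 and 20 TS reads in WT, against 37 and 112 in *csb-1* and 18 and 2 in *xpc-1*. The windows of *vit-3* and *vit-4* lost 49.7% of reads and that of *vit-5* 23.1% to low mapping quality, and these genes are near copies of each other. No sperm protein gene (*msp*) lies on X. The part of stage in the low level of X in *xpc-1* was not tested.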

How the data were processed

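XR-seq reads of CPDs from 8 libraries were analysed. The authors trimmed adaptors with cutadapt, aligned reads with Bowtie2 to the *C. elegans* genome (ce11, which is WBcel235) and deposited the position, strand and score of each distinct read. The deposited score is the mapping quality of the aligner, from 0 to 42, and only reads of 19 to 24 nt are present. Tool versions are not given in the sources used here.

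Reads with a score over 20 were counted once, by midpoint and strand, in 10 kb windows, and divided by TT dinucleotides of the same strand (AA on the reference for the minus strand). Genes came from Ensembl release 115. Levels are log2((reads + 0.5)/TT) relative to the autosomal rate of the library. Windows averaging at least 20 reads in the 4 libraries of a contrast entered limma (3.58.1, R 4.3.3, trended prior variance), and p-values were adjusted by Benjamini-Hochberg over all nuclear windows. The main fit of each contrast was also run on simulated counts, and the alternative fits were not. The simulation used a fixed dispersion that was not fitted to the replicates. Named windows are, per contrast and direction, the 5 with the largest difference among those with an adjusted p under 0.05, a mean of at least 100 reads and 1 direction in all 4 library pairs, plus the 5 highest and lowest per group and the window of *csb-1*. Members, lists and the rule for names were chosen with earlier results of these data known. The main fits did not pair libraries by replicate number. Against *csb-1*, the correlations of same-numbered deviations from the group means were 0.198 (WT) and -0.209 (*xpc-1*) for the level. For the strand ratio they were 0.031 and -0.021, all over 8869 windows. Whether libraries share a batch was not tested. All other values came from Python 3.11.15 (scipy 1.17.1, numpy 2.4.6, pandas 2.3.3). Alternatives changed the pseudocount, filter, weights, copies, mapping quality, divisor, depth, window size, normalization or block, or dropped a library. Not analysed here were RNA-seq, capped RNA-seq and *xpc-1* libraries of L1 larvae.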

Additional observations from a re-analysis of the deposited data

Results flagged for a closer look

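The ratio of X to autosomes ran opposite ways in the irradiated groups. Reads per TT on X stood above the autosomal mean in every library of WT (mean 1.333) and *csb-1* (1.337) and below it in both *xpc-1* libraries (0.662). TS reads in genes gave 1.280 in WT, 1.355 in *csb-1* and 0.668 in *xpc-1*, again with every library on its group's side of 1. The difference from *xpc-1* was not tested beyond the exact permutation test against *csb-1*, which 2 libraries a group cannot bring below p = 0.33, and strain and stage cannot be told apart in it. Against autosome centres the ratio in WT was 0.992 for all reads and 0.937 for TS reads, so the opposite sides of 1 hold against whole autosomes.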

How the results depend on the processing

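Depth limits single windows most in *xpc-1* replicate 2, and mapping-limited windows limit the left end of X. The difference between WT and *csb-1* in reads per TT on X over autosomes was -0.00452 and changed sign without WT replicate 2 (0.00522) or *csb-1* replicate 1 (0.0308), and leaving out 1 library gave -0.0398 to 0.0308. With autosome centres as the reference, the ratios became 0.992 in WT, 1.011 in *csb-1* and 0.459 in *xpc-1* for all reads, 0.937, 1.015 and 0.449 for the TS, and 1.074 and 1.027 for the NTS of WT and *csb-1*. Counting copies moved WT to 1.349 (all reads) and 1.450 (NTS). Any mapping quality gave WT 1.286, 1.239 (TS) and 1.365 (NTS), and *csb-1* 1.303 (TS). Reads per base gave 1.305, 1.208 and 1.396, and 1.279. Without mapping-limited windows the values were 1.287, 1.223 and 1.363, and 1.303. Leaving out 1 library gave 1.323 to 1.342 in WT, 1.302 to 1.372 in *csb-1* and 0.535 to 0.789 in *xpc-1* for all reads. For the TS it gave 1.263 to 1.296, 1.320 to 1.389 and 0.528 to 0.807. For the NTS it gave 1.414 to 1.430, 1.319 to 1.396 and 0.660 to 1.049, and without *xpc-1* replicate 1 the NTS thus passed to the other side of 1. The share of X without UV, 18.41%, was 17.73% at any mapping quality, 19.57% with copies and 18.32% to 18.49% without 1 library. The SD over windows, 0.817, 0.693 and 1.182 in WT, *csb-1* and *xpc-1*, was 0.497, 0.439 and 0.601 in 100 kb windows, and 0.856 in WT when thinned.

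For the level of WT against *csb-1*, 332 X windows became 198 (of 886) in 20 kb windows, 210 with quantile normalization, and 66 to 337 without 1 library, where dropping WT replicate 2 left 159. The strand ratio, with 78, gave 0 without a filter, 264 with weights, 23 when thinned, and 5 to 342 without 1 library. The level of *xpc-1* against *csb-1*, with 1151, gave 70 of 270 tested when thinned (8 higher, 62 lower), 633 of 886 in 20 kb windows, and 22 to 1700 without 1 library. Its strand ratio, with 744, gave 1381 with weights, 172 of 270 when thinned, 465 in 20 kb windows, and 0 to 1586 without 1 library, the 0 arising without either *csb-1* replicate. Thinned fits test fewer windows; the cause of the other changes was not tested. The replicate number used as a block raised the strand-ratio count of WT against *csb-1* to 160 and changed no other count by over 1.5 times. A crossed block, chosen after seeing the data, gave 1360 for the *xpc-1* level. Named windows kept their direction in every alternative that tested them. Since naming required 1 direction in all library pairs, no fit without 1 library could reverse them. When thinned, only 3 of the 10 named windows for the level of *xpc-1* were tested, and 3 of 10 for its strand ratio. In all, 71 of 486 named comparisons lost their call, among them all 10 named strand-ratio windows of *xpc-1* without either *csb-1* replicate.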
